A study of Mus musculus with 6 samples.

Results

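The chemokines that draw monocytes into tissue, with the receptor Ccr2 and the macrophage growth factor Csf1, were examined in subcutaneous KLN205 tumours, which are grown in mice from KLN205, a squamous carcinoma cell line of mouse lung. The 9 genes were chosen by name (Ccl2, Ccl7, Ccl8, Ccl12, Ccr2, Ccl3, Ccl4, Ccl5 and Csf1) out of 21154 genes tested, and each matched exactly 1 transcript cluster, the unit for which the array gives a signal. There were 3 tumours given an anti-PD-1 antibody (replicates 1, 2 and 3) and 3 control tumours (replicates 2, 3 and 4), each read on a Clariom S Mouse array. PD-1 is an inhibitory receptor of T cells. Both groups received the same cell inoculum in 50 µL of medium and 100 µL of Matrigel, a basement membrane gel, under the skin of the left flank, and per the treatment protocol 250 µg of antibody into the peritoneum every 3 days, with an IgG2a isotype antibody in the controls. The controls' own labels say only that no anti-PD-1 was given. The host mice had no strain, age or genetic change stated in the labels, and it is not stated that each tumour came from its own mouse, so the p-values refer to the spread among these 6 samples, which may be partly technical. The series text speaks of surviving cells and the sample labels of tumour tissue. They were taken as values of whole tumours, host cells included, in which fewer cells of a type and less RNA per cell cannot be told apart.

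CC chemokines are small secreted proteins that bind receptors on leukocytes and steer them along a gradient. Ccl2, Ccl7 and Ccl12 are ligands of CCR2, the receptor that inflammatory monocytes use to leave the bone marrow and enter inflamed or tumour tissue. Ccl8 is closely related to them, but the mouse protein acts mainly through CCR8. Ccl3 and Ccl5 act through CCR1, and with Ccl4 they attract T cells and NK cells besides monocytes. Csf1 is the growth factor that keeps monocyte-derived macrophages alive through its receptor CSF1R. In tumours these proteins are made by cancer cells, fibroblasts and the macrophages themselves.

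All ligand genes but Csf1 lie in the CC chemokine region of chromosome 11 (mm10). Ccl2 (82035571 to 82037453), Ccl7 (82045712 to 82047525), Ccl12 (82101845 to 82103400) and Ccl8 (82115185 to 82116799) lie in this order on the plus strand. Ccl11, not one of the 9 genes, lies between Ccl7 and Ccl12. Ccl5 (83525778 to 83530518, minus strand), Ccl3 (83647843 to 83649378, minus strand) and Ccl4 (83662584 to 83664683, plus strand) form a second group. Csf1 lies on chromosome 3 (107741048 to 107760469, minus strand) and Ccr2 on chromosome 9 (124101950 to 124113557, plus strand).

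Promoters of 5 of the 9 genes (Ccl3, Ccl8, Ccl12, Ccr2 and Csf1) were matched in the RefSeq table for GRCm38.p6. The 100 bases before the annotated starts of Ccl8 (chr11:82115085-82115184, plus strand) and Ccl12 (chr11:82101745-82101844, plus strand) are shown because these neighbours in 1 gene cluster had unlike signals in control replicate 3. Those of Ccl3 (chr11:83649379-83649478, minus strand) are shown because it had the widest range of signals of the 9 genes. For Csf1, which differed most clearly once that array was left out, 200 bases are shown (chr3:107760470-107760669, minus strand). Each is written 5′ to 3′ in the direction of the gene. Capitals mark TATAAA, the core of the TATA box, in Ccl8 and Ccl12, the shorter TATAA in Ccl3, and in Csf1 a reverse-strand match to GGGACTT, the leading 7 letters of a common form of the site bound by NF-kappaB.
Ccl8: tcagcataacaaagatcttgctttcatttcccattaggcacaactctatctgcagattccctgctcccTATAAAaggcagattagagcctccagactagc
Ccl12: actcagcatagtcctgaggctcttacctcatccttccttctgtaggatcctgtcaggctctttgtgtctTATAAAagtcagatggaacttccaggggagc
Ccl3: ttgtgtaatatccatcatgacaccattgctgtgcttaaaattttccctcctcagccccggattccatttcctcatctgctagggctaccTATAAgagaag
Csf1: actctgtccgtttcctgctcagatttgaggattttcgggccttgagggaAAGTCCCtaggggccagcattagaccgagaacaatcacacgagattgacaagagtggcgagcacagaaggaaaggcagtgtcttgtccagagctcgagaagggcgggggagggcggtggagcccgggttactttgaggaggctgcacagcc

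The motifs were searched on both strands of the 250 bases before each start, in 32851 promoters of that table. TATAAA was found in 12.4% of them, TATAA, which every TATAAA contains, in 22.8%, and GGGACTT in 4.65%. In Ccl8 the TATAAA begins 32 bases before the start and in Ccl12 31 bases before it. In Ccl3 the TATAA begins 11 bases before the start, with another on the reverse strand from 162 to 158 bases before it. The match in Csf1 lies 151 to 145 bases before the start, and Ccr2 holds 1 TATAA, 207 to 203 bases before its start. The motifs were chosen after the promoters had been read, and a longer form of the NF-kappaB site that begins with GGGACTT was searched first and matched at the same place. A match is a description of the letters, not a site shown to be bound.

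Among the controls replicate 3 differed from the rest across all genes. Its Pearson correlation with the others, across all genes, was between 0.907 and 0.936, against 0.973 to 0.987 among the other 5 arrays, while the array medians lay between 7.04 and 7.13 in log2 signal. To score a marker list on an array, each gene's log2 signal was centred on its mean of the 6 arrays and the median over the list was taken. In control replicate 3 this score was 6.69 for mammary gland markers, 5.53 for adipocyte markers and -4.55 for markers of squamous epithelium, the tissue type of the line, against -2.95 to 3.38, -2.76 to 0.96 and -1.50 to 2.50 in the other 5 arrays. Control replicate 2 had the mammary score of 3.38, and the remaining 4 arrays lay below 0. Anti-PD-1 replicate 3 had the lowest score for skeletal muscle (-3.45, with -0.48 to 2.26 elsewhere), adipocytes (-2.76), fibroblasts (-1.57) and endothelium (-1.20). In control replicate 3 the basal keratins Krt5 and Krt14 still read 11.00 and 9.90, against 13.14 to 18.15 and 13.41 to 17.42 elsewhere. Each of the 9 genes is therefore given with and without control replicate 3. Between groups, all 5 measured squamous markers had higher means in the anti-PD-1 group. Their differences (log2) had a median of 3.65, or 2.205 without control replicate 3. All 7 fibroblast markers (-1.18, and -1.03 without it) and all 6 endothelial markers (-1.39, and -0.91 without it) had lower means. So did all 5 mammary gland markers (-4.45, and -2.215 without it) and all 6 adipocyte markers (-3.18, and -1.09 without it). All 6 skeletal muscle markers did too (-0.85), but their median was 0.036 without it. The mammary gland and adipocyte differences did not hold for every control array. In control replicate 4 the mammary score (-2.95) was the lowest of the 6 arrays. Its adipocyte score (-1.86) lay within the anti-PD-1 range of -2.76 to -0.97. The groups overlapped for every gene of both lists. None passed the adjusted threshold in these 6 lists. The summed signal of the squamous list ran from 18.03 to 19.13 in anti-PD-1 and from 13.32 to 17.47 in control tumours (log2), that of the fibroblast list from 17.12 to 18.02 and from 18.04 to 19.42, and that of the endothelial list from 11.68 to 12.57 and from 12.94 to 14.70. The part of this difference in cell markers in the values of the 9 genes was not tested.

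None of the 9 genes passed the test between anti-PD-1 and control tumours. By limma with Benjamini-Hochberg adjustment over all 21154 genes, 0 of 9 had an adjusted p under 0.05, where 0.00473% of all genes did, and 0 of 9 had an unadjusted p under 0.05, where 9.70% did. In the authors' deposited table, whose fold runs the other way (control over anti-PD-1), the smallest p of the 9 was 0.108, that of Ccr2, with an FDR of 0.553. The groups overlapped for all 9 genes, while they did not overlap for 16.6% of all genes. The mean was higher in anti-PD-1 tumours for 5 of the 9 and lower for 4. The median log2 difference (anti-PD-1 minus control) was 0.17, beside 0.02 over all genes. Without control replicate 3 all 9 differences lay below 0, with a median of -0.405, beside 0.018 over all genes. These 9 differences share the same 5 arrays, and by limma 0 of 9 had an adjusted p under 0.05, where 0.0189% of all genes did, and 1 of 9 an unadjusted p under 0.05, where 8.61% did. Without control replicate 2 the median was 0.29, and 0 of 9 passed the adjusted threshold. Control replicate 3 was the lowest of the 6 arrays for 6 of the 9 genes, and it was so for 28.1% of all genes.

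**Figure D1:**
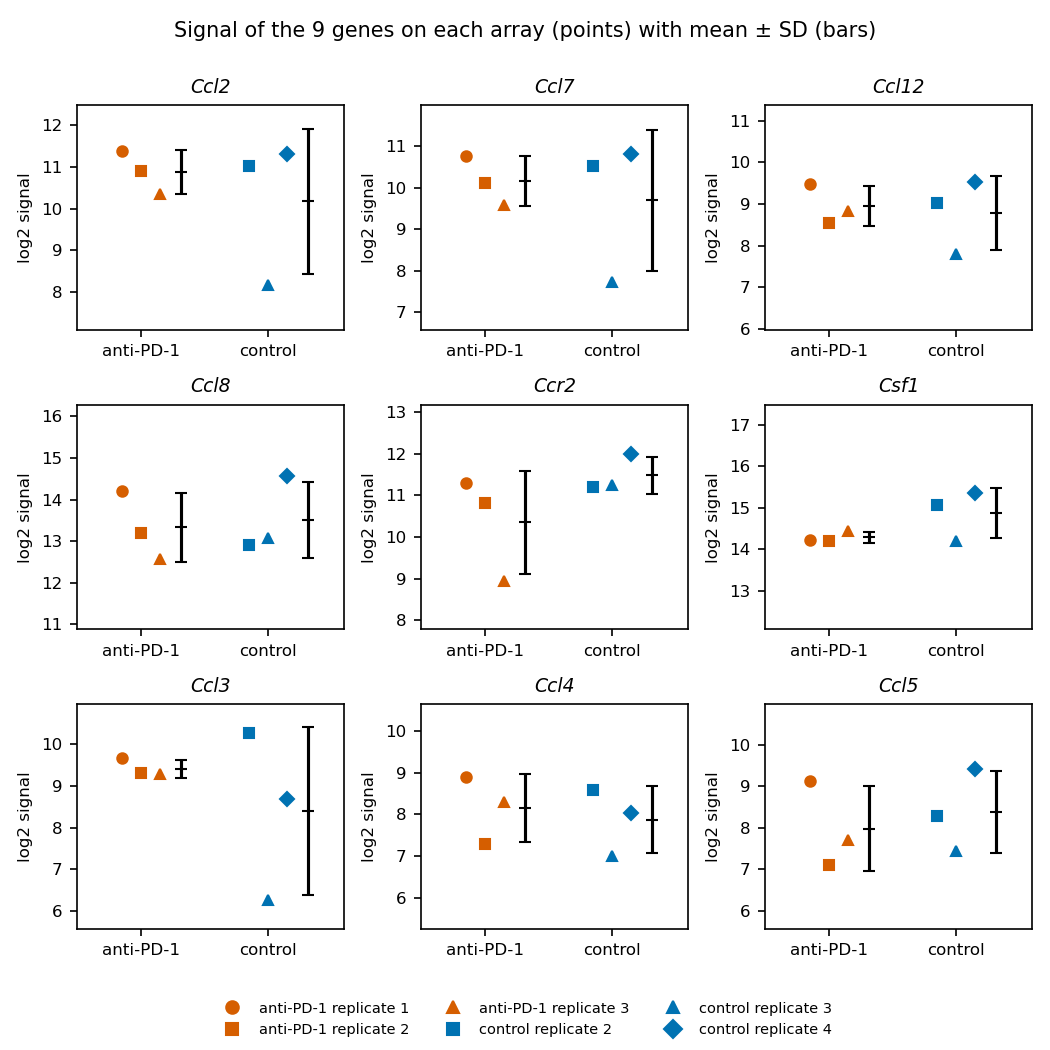
Log2 signal (y axis, each panel spanning the same number of log2 units) of the 9 genes on each array, with anti-PD-1 tumours in orange and control tumours in blue, and the mean and SD of each group of 3 arrays as a black bar. Control replicate 3 (blue triangle) lies far below the other 5 arrays for Ccl2, Ccl7 and Ccl3, and anti-PD-1 replicate 3 (orange triangle) does so for Ccr2.

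The CCR2 ligand genes Ccl2 and Ccl7 had almost the same pattern, at similar signals in 5 of the arrays and low in 1. Ccl2 read 11.39, 10.90 and 10.35 in anti-PD-1 tumours, against 11.03, 8.17 and 11.32 in control tumours (log2 signal, replicates in order of number). The anti-PD-1 values thus lay in the range of the controls but for replicate 1, which was the highest of all, and the low control value was that of replicate 3. The means were 10.88 ± 0.52 in anti-PD-1 tumours and 10.17 ± 1.74 in control tumours (SD, n = 3 each), a log2 difference of 0.71 with a 95% interval from -1.25 to 2.67, or from 0.420-fold to 6.35-fold (limma adjusted p = 0.757). Without control replicate 3 it was -0.295, with an interval from -1.08 to 0.49 (adjusted p = 0.834).

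Ccl7, whose protein shares the receptor, read 10.77, 10.11 and 9.57 in anti-PD-1 tumours, against 10.52, 7.74 and 10.81 in control tumours. The same control array was low and the other 5 lay within 1.24 log2 units of each other. The means were 10.15 ± 0.60 in anti-PD-1 and 9.69 ± 1.69 in control tumours (SD, n = 3 each). The log2 difference was 0.46 (interval from -1.48 to 2.40, limma adjusted p = 0.845), and it was -0.515 without control replicate 3 (adjusted p = 0.716). Likeness was measured as the root-mean-square difference between signals centred on each gene's mean of the 6 arrays. By it Ccl7 was the nearest of all 21153 other genes to Ccl2, at 0.138 log2 units. The nearest genes outside the 9 were Mxd1, a MYC antagonist (0.175), Itgax, the integrin CD11c of dendritic cells and macrophages (0.178), and the receptor gene Gpr35 (0.183). Chosen by likeness over these same arrays, all 3 share the low value in control replicate 3. Itgax read 6.85 there, against 9.54 to 10.47 elsewhere.

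Ccl12 and Ccl8, further genes of the same cluster, departed from this pattern to different degrees. Ccl12 read 9.49, 8.55 and 8.84 in anti-PD-1 tumours, against 9.03, 7.80 and 9.54 in control tumours, again lowest in control replicate 3 but by less. Its log2 difference was 0.17 (interval from -0.98 to 1.32, limma adjusted p = 0.911), and became -0.325 when control replicate 3 was left out and -0.095 when anti-PD-1 replicate 1 was. Ccl8 read 14.21, 13.20 and 12.58 in anti-PD-1 tumours, against 12.90, 13.08 and 14.57 in control tumours. Here control replicate 3 was not low, and 1 array of each group stood above the rest. The log2 difference of Ccl8 was -0.19 (interval from -1.55 to 1.18, adjusted p = 0.918), and became -0.405 when control replicate 3 was left out (adjusted p = 0.874), 0.34 when control replicate 4 was and 0.19 when anti-PD-1 replicate 3 was. The distance from Ccl2 was 0.626 log2 units for Ccl12 and 1.00 for Ccl8, which placed them 491st and 5091st among the other genes.

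**Figure D2:**
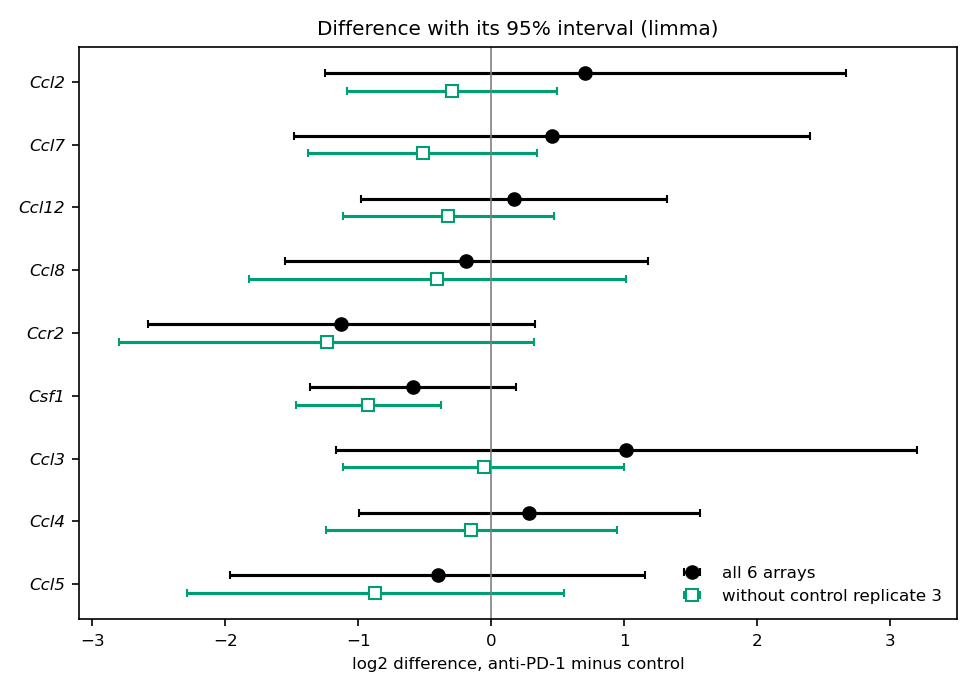
Log2 difference, anti-PD-1 minus control (x axis), of the 9 genes with its 95% interval from limma, over all 6 arrays (black circles) and without control replicate 3 (green squares). All black intervals cross 0, and without that array the squares lie below 0, with the interval of Csf1, from -1.47 to -0.38, the one that does not cross it.

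The receptor gene Ccr2 had the lowest log2 difference of the 9 genes, and 1 anti-PD-1 array made most of it. Ccr2 read 11.30, 10.82 and 8.95 in anti-PD-1 tumours, against 11.19, 11.26 and 12.00 in control tumours. Anti-PD-1 replicate 1 lay within the control range, replicate 2 just below it and replicate 3 far below it. The means were 10.36 ± 1.24 in anti-PD-1 and 11.48 ± 0.45 in control tumours (SD, n = 3 each). The log2 difference was -1.13 ± 0.61 (SE; interval from -2.58 to 0.33), which is 0.458-fold, with a limma adjusted p of 0.553. It became -1.24 when control replicate 3 was left out and -0.42 when anti-PD-1 replicate 3 was, and it stayed below 0 with any 1 array left out. Control replicate 3, low for Ccl2 and Ccl7, was not low for their receptor.

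Among the genes most like Ccr2 over the 6 arrays were the leukocyte genes Nfam1, an activating receptor gene, at a root-mean-square difference of 0.278 log2 units, and Itgam, the integrin CD11b of myeloid cells (0.310). Itgam, chosen by likeness over these same arrays, had a signal of 9.32 in anti-PD-1 replicate 3, with 10.66 to 11.99 on the remaining arrays. The score of the 7 monocyte markers was 0.47, -0.25 and -0.93 in anti-PD-1 replicates 1, 2 and 3, against 0.14, -0.075 and 0.47 in control replicates 2, 3 and 4, lowest in the array with the least Ccr2. That array was also the lowest for the macrophage, fibroblast, endothelial, adipocyte and skeletal muscle scores, so the low score was not particular to monocytes. The summed signal of the monocyte list (log2) was 14.61, 13.60 and 13.74 in anti-PD-1 tumours, lowest in replicate 2, against 14.07 to 14.50 in control tumours. The part of cell content in the Ccr2 values was not tested. Of the 7 monocyte markers, 2 had higher and 5 lower means in anti-PD-1 tumours. Their median log2 difference was -0.71, and none passed the adjusted threshold. Those with the smallest p were the matrix proteoglycan gene Vcan (-1.52), the clotting factor gene F13a1 (-1.76), Chil3 (-0.71) and Ly6c2, the surface antigen of inflammatory monocytes (1.08, and 0.44 without control replicate 3).

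Csf1 was the gene whose anti-PD-1 values agreed most closely with each other. It read 14.22, 14.21 and 14.44 in anti-PD-1 tumours, against 15.08, 14.20 and 15.35 in control tumours. Control replicates 2 and 4 lay above all anti-PD-1 arrays and control replicate 3 just under them. The means were 14.29 ± 0.13 in anti-PD-1 and 14.88 ± 0.60 in control tumours (SD, n = 3 each). The log2 difference was -0.59 ± 0.33 (SE; interval from -1.36 to 0.19), or 0.666-fold, with a limma adjusted p of 0.557. Without control replicate 3 the difference was -0.925 ± 0.23 (SE; interval from -1.47 to -0.38), or 0.527-fold, and the groups did not overlap, as for 24.7% of all genes on those 5 arrays. This was the 1 gene of the 9 with an unadjusted p under 0.05 there, and its limma adjusted p was 0.485. With any 1 array left out the difference stayed between -0.925 and -0.35.

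The receptor of Csf1 differed the same way, also short of the threshold. Csf1r read 13.86, 13.06 and 12.55 in anti-PD-1 tumours, against 13.91, 13.77 and 15.08 in control tumours, a log2 difference of -1.10 (limma adjusted p = 0.517). Il34, which encodes the other ligand of that receptor and was chosen after its values were seen, differed by -0.043. Of 12 macrophage markers, Csf1r among them, 4 had higher and 8 lower means in anti-PD-1 tumours, and their median difference was -0.39, with none past the adjusted threshold. The smallest p values were those of Adgre1, the macrophage antigen F4/80 (-1.20, groups not overlapping), Csf1r, the phagocytic receptor gene Mertk (-0.53) and the lysozyme gene Lyz2 (-0.96). The macrophage score was 0.34, -0.27 and -0.32 in anti-PD-1 replicates 1, 2 and 3, against 0.155, -0.0083 and 0.68 in control replicates 2, 3 and 4, and the summed signal ran from 15.74 to 16.90 and from 16.43 to 17.47 (log2). Control replicate 3, with the lowest Csf1, had a macrophage score in the middle of the 6 arrays, but its single markers went both ways. Msr1 (7.67), Cd68 (10.52), C1qa (12.10) and Fcgr1 (8.56) were lowest in that array. Cd14 (9.49) was highest there, and the remaining macrophage markers lay between. The genes most like Csf1, chosen by likeness over these same arrays, were the homeobox gene Hoxc6 (0.072 log2 units), the leukocyte phosphatase gene Ptpn7 (0.132) and the phospholipase gene Plcb2 (0.136). The signals of Ptpn7 were dim (6.34 to 7.47). Hoxc6 read 9.95, 9.84 and 10.19 in anti-PD-1 tumours, against 10.62, 9.85 and 11.07 in control tumours.

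**Figure D3:**
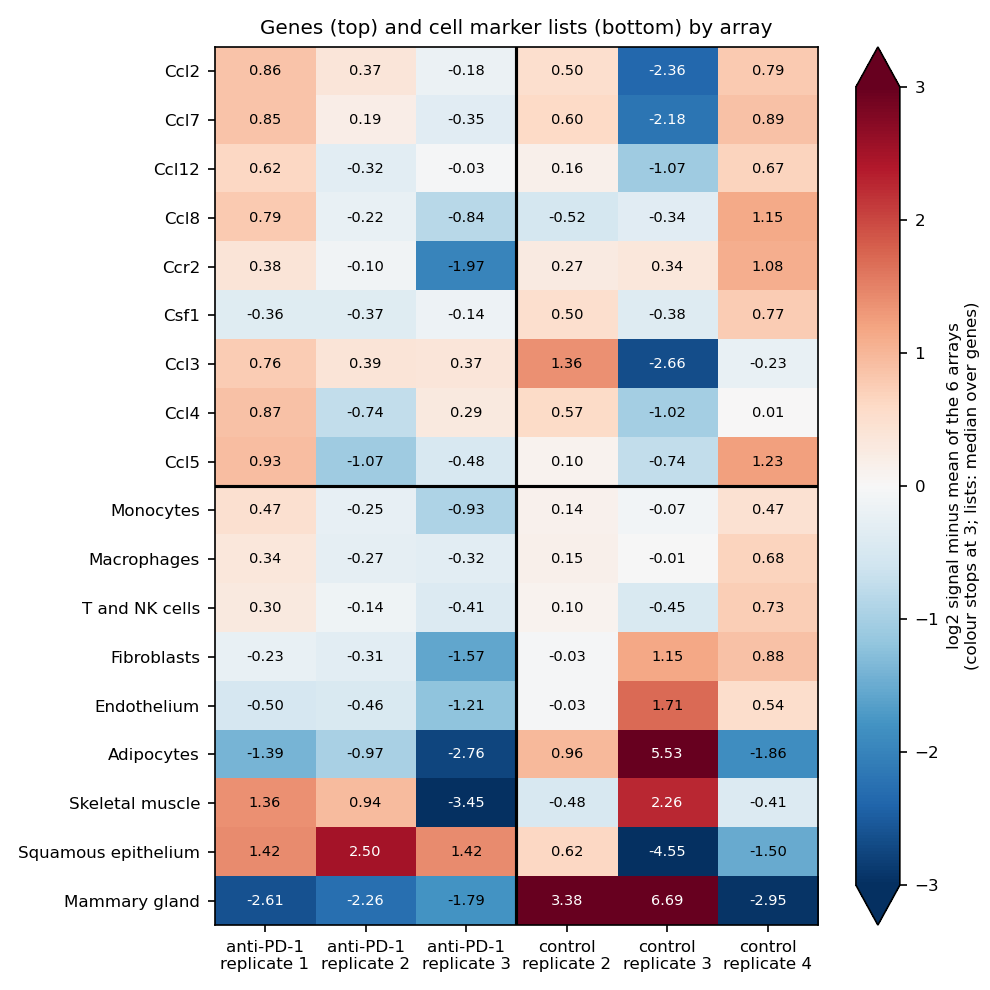
Log2 signal of the 9 genes (top) and score of 9 cell marker lists (bottom) on each array, each relative to its mean of the 6 arrays, or for a list the median of its genes so centred, with anti-PD-1 tumours left of control tumours. The low Ccl2, Ccl7 and Ccl3 signals of control replicate 3 stand in the array with the mammary gland score of 6.69, the adipocyte score of 5.53 and the squamous score of -4.55. The low Ccr2 of anti-PD-1 replicate 3 stands in the array with the lowest scores for skeletal muscle (-3.45), adipocytes (-2.76), fibroblasts (-1.57), endothelium (-1.20), monocytes (-0.93) and macrophages (-0.32).

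The means of Ccl3, Ccl4 and Ccl5 differed between groups by less than the SD within the control group, and each gene had its own pattern. Ccl3 read 9.67, 9.30 and 9.28 in anti-PD-1 tumours, against 10.27, 6.25 and 8.68 in control tumours, so that the controls lay on both sides of a narrow anti-PD-1 range. The means were 9.42 ± 0.22 in anti-PD-1 and 8.40 ± 2.02 in control tumours (SD, n = 3 each). The log2 difference of 1.02 was the highest of the 9 genes, with an interval from -1.17 to 3.20 and a limma adjusted p of 0.686. It was -0.058 without control replicate 3 and 1.95 without control replicate 2 (limma adjusted p = 0.299).

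Ccl4, the neighbour of Ccl3, read 8.89, 7.28 and 8.31 in anti-PD-1 tumours, against 8.59, 7.00 and 8.03 in control tumours. Both groups covered nearly the same range, and the log2 difference was 0.29 (interval from -0.99 to 1.57, limma adjusted p = 0.855). It became -0.15 when control replicate 3 was left out and -0.078 when anti-PD-1 replicate 1 was. Ccl5, a product of activated T cells and NK cells, read 9.12, 7.12 and 7.71 in anti-PD-1 tumours, against 8.29, 7.45 and 9.42 in control tumours. In each group 1 tumour stood above 9, and the log2 difference was -0.40 (interval from -1.96 to 1.16, adjusted p = 0.830). It became -0.87 when control replicate 3 was left out, 0.028 when anti-PD-1 replicate 2 was and 0.11 when control replicate 4 was.

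The genes most like Ccl5, chosen by likeness over these same arrays, were genes of blood cells. They were Nckap1l (0.248 log2 units) and the GTPase gene Rac2 (0.267), both of the leukocyte cytoskeleton, and the costimulatory receptor gene Cd40 (0.278). Nckap1l read 10.91, 9.60 and 9.54 in anti-PD-1 tumours, against 10.45, 9.29 and 11.30 in control tumours. The score of the 9 measured T and NK cell markers was 0.30, -0.14 and -0.415 in anti-PD-1 replicates 1, 2 and 3, against 0.105, -0.45 and 0.73 in control replicates 2, 3 and 4. It was highest in control replicate 4 and next in anti-PD-1 replicate 1, the arrays with the highest Ccl5. The macrophage score had the same top arrays in the same order (0.34 in anti-PD-1 replicate 1 and 0.68 in control replicate 4), and the monocyte score the same pair (0.47 in each), so this match was not particular to T and NK cells. The part of cell content in the Ccl5 values was not tested. The summed signal of these markers ran from 10.89 to 11.45 in anti-PD-1 and from 10.73 to 12.12 in control tumours (log2). Of them 4 were higher and 5 lower, with a median of -0.29 and none past the adjusted threshold, and without control replicate 3 the median was -0.58, with 2 of 9 higher. The smallest p values were those of the granzyme gene Gzmb (1.63, and 0.92 without that array), the NK cell receptor gene Ncr1 (-0.97), Cd4 (-0.64) and Cd8a (-0.62, and -0.97 without it).

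**Figure D4:**
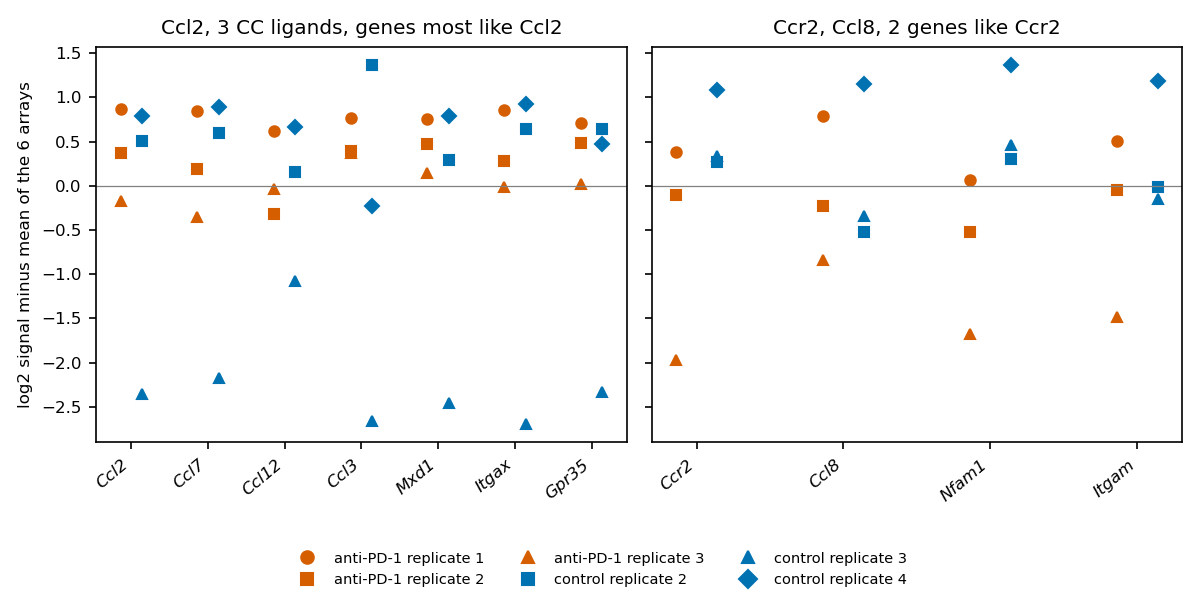
Log2 signal minus the gene's mean of the 6 arrays (y axis) for Ccl2, Ccl7, Ccl12, Ccl3 and the 3 other genes most like Ccl2 (left), and for Ccr2, Ccl8, Nfam1 and Itgam (right). Each point is 1 array, with anti-PD-1 tumours in orange left of control tumours in blue. The left genes are all lowest in control replicate 3 (blue triangle), Ccl12 by less. The right genes are all lowest in anti-PD-1 replicate 3 (orange triangle), Ccl8 by less.

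The receptors of these ligands gave differences in both directions. Of 7 further receptors and scavengers, 3 had higher and 4 lower means in anti-PD-1 tumours. Their median log2 difference was -0.64, or -0.297 without control replicate 3, and none passed the adjusted threshold. Ccr1, a receptor of Ccl3 and Ccl5, was chosen after its values were seen and differed by 0.77. Ccr1 read 10.57, 9.64 and 9.52 in anti-PD-1 tumours, against 10.04, 7.50 and 9.87 in control tumours, low in the same control array as Ccl3, and without it the difference of Ccr1 was -0.045. Ccr3, the eotaxin receptor of eosinophils, which also binds Ccl5 and Ccl7, read 8.48, 6.99 and 6.01 in anti-PD-1 tumours, against 9.44, 9.33 and 9.62 in control tumours. Its groups did not overlap, and the log2 difference was -2.30 (limma adjusted p = 0.506). Cx3cr1, the receptor of patrolling monocytes, differed by -1.44, and by -2.215 without control replicate 3 (limma adjusted p = 0.110). Ackr1, a chemokine-binding receptor of vessels and red cells, differed by -0.64, and by -0.297 without that array. The signals of Ackr1 were dim (4.83 to 6.35), below the array medians of 7.04 to 7.13.

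Among other CC chemokines the largest differences were toward lower signals in anti-PD-1 tumours. Of 13 measured, 2 had higher and 11 lower means in anti-PD-1 tumours. Their median log2 difference was -0.61, and none passed the adjusted threshold over all 6 arrays. The unadjusted p was under 0.05 for 6, all lower, beside 9.70% of all genes, and the groups did not overlap for 5 (4 lower, 1 higher), beside 16.6% of all genes. Ccl11, an eotaxin gene that lies between Ccl7 and Ccl12, read 13.37, 12.97 and 12.48 in anti-PD-1 tumours, against 13.86, 14.12 and 15.02 in control tumours. Its groups did not overlap, unlike those of its 4 neighbours, and its log2 difference was -1.39 (limma adjusted p = 0.506). The lymphoid chemokine gene Ccl19 differed by -0.95, at dim signals of 5.43 to 6.82, below the array medians of 7.04 to 7.13. Ccl6 differed by -2.36 and Ccl22, a ligand of CCR4, by -2.94. Each of these genes was without overlap between groups and had a limma adjusted p of 0.506. Without control replicate 3, 1 of the 13 passed, beside 0.0189% of all genes. It was Ccl17, the other CCR4 ligand, singled out after its values were seen. Ccl17 differed by -3.52 there (limma adjusted p = 0.0422), against -2.43 over all arrays (adjusted p = 0.506).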

How the data were processed

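The authors deposited log2 signals for each transcript cluster of Clariom S Mouse arrays, computed by SST-RMA at gene level with mm10 annotation, per the file headers. The Transcriptome Analysis Console was used per the submitters' processing notes, with no version named there. Per the labels' protocols 250 ng of total RNA was amplified per sample and labelled with biotin. For each group the authors' deposited table adds an average in log2, an SD and an expressed call, and for the comparison a signed fold score (control over anti-PD-1), a p-value and its FDR, per the file headers. All 9 genes were called expressed in both groups there. In a second deposited table of the same log2 signals 0 values differed.

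Of 22206 clusters, 836 with several names and 3 with none were left out, and the brightest cluster was kept for 132 genes with several. The 21154 genes were fitted in limma (version 3.58.1, R 4.3.3; lmFit, eBayes; two-sided) and called at an adjusted p of 0.05, with no filter on dim signals. The fit was tested on simulated data with known changes, independent noise and no outlying array. That test therefore does not cover an array like control replicate 3. Intervals are 95% intervals of that fit, and the 3 arrays per group limit the precision. All 9 members are named, along with up to 4 genes per further list by smallest p and the 3 non-members nearest to Ccl2, Ccr2, Ccl5 and Csf1, except 1 that is not reported here. Members and lists were chosen with earlier results of these data known. Alternatives varied the normalization, filter, clusters, variance model, array weights, table, block and each array left out. RefSeq tables (GRCm38.p6) gave promoters. Trac was not matched to a cluster, and Pdgfra and Krt6a only to clusters with several names, so these markers were not used.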

Additional observations from a re-analysis of the deposited data

How the results depend on the processing

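No member passed the adjusted threshold under any of the 14 alternatives, by limma, and the number of genes called in all was 1 over all arrays, 0 after quantile normalization, 0 after median centring and between 0 and 4 with 1 array left out. Ccr2 and Csf1 stayed below 0 in all 14. With 1 array left out the log2 difference ran from -0.295 to 1.28 for Ccl2, from -0.515 to 1.02 for Ccl7, from -0.325 to 0.545 for Ccl12, from -0.63 to 0.34 for Ccl8, from -0.058 to 1.95 for Ccl3, from -0.15 to 0.73 for Ccl4 and from -0.97 to 0.11 for Ccl5, so that each changed sign. The median over the 9 genes ran from -0.405 to 0.375. With array weights, which gave control replicate 3 the lowest weight (0.341), Ccl7 differed by -0.052 and Ccl12 by -0.084. Replicate numbers 2 and 3 occur in both groups, and the deviations of the same-numbered arrays correlated at -0.196 and -0.191 across genes, so the numbers were not taken as pairs. With the replicate number as a block 0 genes were called, 696 had an unadjusted p under 0.05 in place of 2051, and Ccl4 differed by 0. The deposited signals leave no room to vary the background correction.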

Other observations

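None of the other attractants and inducers of these chemokines examined passed the adjusted threshold. Of 8 other monocyte attractants and growth factors, with the receptor gene C5ar1 counted among them, 4 had higher and 4 lower means in anti-PD-1 tumours. Their median log2 difference was 0.037, or -0.031 without control replicate 3. Mif, which encodes a cytokine that holds macrophages in place, read 12.61, 12.35 and 14.05 in anti-PD-1 tumours, against 12.33, 9.0 and 10.04 in controls. The groups did not overlap, with a log2 difference of 2.55 (limma adjusted p = 0.506), or 1.82 when control replicate 3 was left out. Cxcl12 differed by -1.55, Cx3cl1, the ligand of CX3CR1, by -0.83, and the complement receptor gene C5ar1 by -0.41. Of 14 genes of the NF-kappaB pathway and its inducers 4 were higher and 10 lower, with a median of -0.245 and none past the adjusted threshold. Il1a, an inducer of Ccl2 in many cells, read 10.35, 10.80 and 10.56 in anti-PD-1 tumours, against 10.01, 5.70 and 7.92 in control tumours, and differed by 2.69, or by 1.605 without control replicate 3. Il6 differed by 1.62, the apoptosis inhibitor gene Birc3 by -1.62 and the adhesion molecule gene Icam1 by -0.62.

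The direction of 4 of the 9 genes depended on how the arrays of a group were averaged. The authors' deposited table gives group averages in log2 of 10.88 in anti-PD-1 and 11.17 in control tumours for Ccl2, where the means were 10.88 and 10.17. For Ccl7 the authors' deposited table gives 10.14 and 10.66, for Ccl12 8.89 and 8.92 and for Ccl8 13.28 and 12.99, each with the sign opposite to that of the difference of the means. Over all clusters the signs were opposite in 3170 of 22206 (14.3%). Of the averages in the authors' deposited table, 96.1% in anti-PD-1 and 96.4% in control tumours lay within 0.011 of a 1-step Tukey biweight, an average that gives outlying values less or no weight. The mean came that close in 24.8% and 20.2%. The limma p-values refer to the means. For Ccr2, in the authors' deposited table the averages of 10.90 in anti-PD-1 and 11.23 in control tumours differ by -0.33, where the means differ by -1.13.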
